A study of Mus musculus with 12 samples.

Results

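Sterol and fatty acid synthesis was followed through 38 genes in mouse embryonic fibroblasts, the connective-tissue cells grown out of mouse embryos. The genes were taken by symbol from the 32168 genes of the deposited count table, and all 38 passed the filter on low counts that left 16595 genes for testing. They cover 5 roles: the SREBP transcription factors with their sterol sensors (6 genes), the mevalonate steps (8), the steps from squalene to cholesterol (11), fatty acid synthesis (6), and fatty acid desaturation and elongation (7).

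The 12 libraries form 8 groups of genotype, treatment and day. Wild-type (WT) cells and cells lacking both LATS1 and LATS2 (DKO) received either MGH-CP1 (CP1) at 1 µM or its solvent DMSO alone, for 2 or 4 days. Each CP1 group has 2 libraries and each DMSO group 1, so a genotype has 4 CP1 and 2 DMSO libraries. LATS1 and LATS2 are the Hippo-pathway kinases that hold back YAP and TAZ, the co-activators of the TEAD DNA-binding proteins, and CP1 blocks the palmitoylation of TEAD. Every group came from E13.5 embryos at passage 4 to 10, in DMEM with glucose at 4.5 g/L, L-glutamine at 2 mM and FBS, a serum that also brings lipids, at 10%. The labels name no clone, number of embryos or deletion method for either genotype, so loss of the kinases and another origin of the DKO cells cannot be told apart. They also do not say whether repeats were separate cultures, so p-values measure only the spread between these libraries, which may be technical. In bulk RNA, fewer cells of a type and less RNA per cell cannot be told apart.

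Cells make cholesterol from acetyl-CoA through mevalonate, isoprenoid pyrophosphates, squalene and lanosterol, and make palmitate from the same acetyl-CoA by way of malonyl-CoA. Both arms are read out by the SREBP factors: the protein of Srebf2 acts mainly on sterol genes and that of Srebf1 mainly on fatty acid genes. Scap escorts both to the Golgi, where they are cut and set free, and Insig1 and Insig2 hold Scap back when sterols are plentiful. Insig1 is itself a target of SREBP, which closes a feedback loop. Palmitate, the main product of fatty acid synthase, is also the acyl group that TEAD proteins carry.

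Promoter sequence was available for 31 of the 38 genes in 41 windows, each running from 250 bases before the start of a gene to 50 bases after it (RefSeq, GRCm38.p6). Each motif was searched on both strands. TCACCCCAC, the classical sterol regulatory element, lay in 1 of the 41 windows (2.44%, against 0.551% of all 32851 windows), that of Hmgcs1, and the relaxed TCACNCCAC, which includes it, in the same 1 window (1.24% of all windows). CCAAT, the box read by NF-Y, a usual partner of SREBP, lay in 27 windows of 26 genes (65.9%, against 37.4%). GGGCGG, read by Sp1, lay in 29 windows (70.7%, against 35.7%), and CACGTG, an E-box, in 7 (17.1%, against 7.15%). A match describes these letters and is no evidence of binding. The 150 bases before the start follow for the gene with the sterol element and for 4 genes that differed widely between the genotypes, Mvd, Mvk, Msmo1 and Fasn. Capitals mark CCAAT in either orientation (CCAAT or ATTGG) and the sterol element. The first stretch is chr13:119690201-119690350 on the plus strand, the second chr8:122443423-122443572 on the minus strand, the third chr5:114444119-114444268 on the plus strand, and the last 2 are chr8:64733579-64733728 and chr11:120824548-120824697, both on the minus strand.
Hmgcs1: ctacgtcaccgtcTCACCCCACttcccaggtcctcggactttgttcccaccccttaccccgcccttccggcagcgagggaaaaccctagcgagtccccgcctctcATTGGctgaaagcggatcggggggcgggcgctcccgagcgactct
Mvd: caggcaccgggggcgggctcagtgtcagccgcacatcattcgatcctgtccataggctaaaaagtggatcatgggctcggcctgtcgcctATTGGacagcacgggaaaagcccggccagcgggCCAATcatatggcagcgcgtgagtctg
Mvk: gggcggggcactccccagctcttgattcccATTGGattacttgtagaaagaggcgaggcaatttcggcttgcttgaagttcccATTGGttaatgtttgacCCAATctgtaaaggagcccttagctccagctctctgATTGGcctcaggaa
Msmo1: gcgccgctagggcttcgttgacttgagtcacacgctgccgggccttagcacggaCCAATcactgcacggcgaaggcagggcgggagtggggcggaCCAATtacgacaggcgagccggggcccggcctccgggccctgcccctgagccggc
Fasn: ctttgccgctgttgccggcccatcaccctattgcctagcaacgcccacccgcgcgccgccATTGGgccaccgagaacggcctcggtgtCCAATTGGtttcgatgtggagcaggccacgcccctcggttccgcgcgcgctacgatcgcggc
In these stretches Hmgcs1 holds 1 CCAAT box, Mvd and Msmo1 hold 2 each, Fasn 3 and Mvk 4. In Fasn a pair of them overlaps, one on each strand.

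Library totals ran from 16970834 to 25299262 counts. Lats1 had 16.2 and 25.2 CPM (read counts relative to library size, with sizes scaled by TMM) in DKO DMSO and 35.5 to 40.6 in DKO CP1. In WT it ran from 94 to 117. Lats2 ran from 16.6 to 19.6 in the DKO libraries against 48.4 to 65.7 in WT. The loss of both kinases is taken from the labels, and counts per gene do not test it. The 12 fibroblast markers summed to 9835 to 25410 CPM in the libraries, lowest in DKO DMSO. There 11 of them were called lower than in WT DMSO and 1 higher. Their median log2 fold change was -2.61, with Dcn at -9.45 and Col3a1 at -6.96. Ribosomal RNA and miRNA genes took 2.51% to 3.08% of counts in 3 of the 4 WT CP1 libraries and at most 0.279% in each of the others. The DKO DMSO libraries of 2 and 4 days differed by a chi-square of 48.1 per degree of freedom, while the WT DMSO pair differed by 1.98. The repeats of WT CP1 at 2 days, with 3.08% and 0.0424% of such RNA, differed by 56. Results that rest on those libraries are given with and without them. The 38 genes together took 0.267% to 0.352% of counts in WT libraries and 0.449% to 0.58% in DKO libraries, and these ranges did not overlap. On TPM, which divides by gene length, the desaturase gene Scd2 led the 38 in every library, at 310.5 to 599 in WT and 429.7 to 1028 in DKO.

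**Figure D1:**
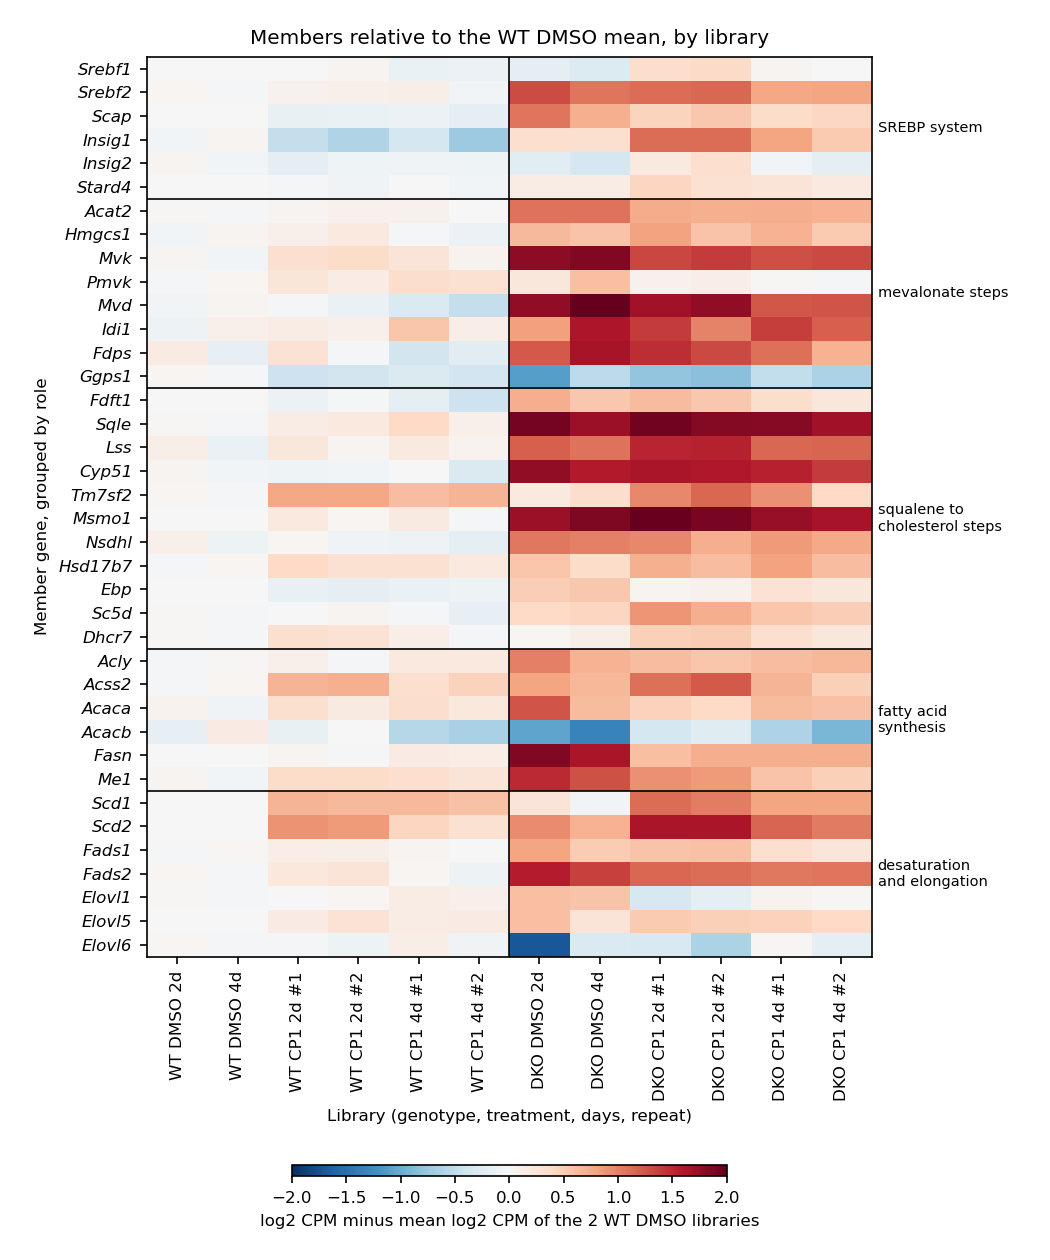
Heat map of the 38 genes (rows, grouped by role) in the 12 libraries (columns), coloured by log2 CPM minus the mean log2 CPM of the 2 WT DMSO libraries, with the scale ending at -2 and 2. Most sterol genes are red in all 6 DKO libraries, Ggps1 is blue there, and Fasn is darkest in the 2 DKO DMSO libraries.

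The first comparison set DKO against WT cells without drug. Most of the pathway was higher in DKO cells, with the widest differences among mevalonate enzymes, squalene and lanosterol enzymes and Fasn. Of the 38 genes 28 were called higher and 5 lower (adjusted p under 0.05). Of all tested genes 67.5% were called, 32.7% higher and 34.8% lower. Their median log2 fold change was 0.69, and that of all tested genes -0.06. Of the mevalonate genes 7 were higher and 1 lower, of the squalene-to-cholesterol genes 9 and 0, of the fatty acid synthesis genes 5 and 1, and of the desaturation and elongation genes 5 and 1. The SREBP system split, with 2 higher and 2 lower.

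Among the regulators, Srebf2 (mm10 chromosome 15, 82147181 to 82205379, plus strand) stood at 187 and 179 CPM in WT DMSO at 2 and 4 days and at 451 and 385 in DKO DMSO. The DKO libraries were both higher, by a log2 fold change of 1.19 ± 0.08 (SE; adjusted p = 4.09e-08). Srebf1 (chromosome 11, 60199089 to 60222581, minus strand) went the other way, from 95.9 and 95.7 CPM in WT to 84.0 and 79.6 in DKO, a log2 fold change of -0.23 ± 0.09 (adjusted p = 0.0318). Scap, the escort of both factors, was higher by 0.90 ± 0.09. Insig2, the retention factor that is not a main SREBP target, fell from 48.7 and 45.4 CPM to 40.7 and 36.8, by 0.28 ± 0.10 on the log2 scale (adjusted p = 0.0219). Insig1 (chromosome 5, 28071363 to 28078662, plus strand), the feedback target, stood at 26.6 and 28.6 CPM in WT and at 34.7 and 34.6 in DKO. The difference of 0.33 ± 0.14 missed the threshold (adjusted p = 0.0546), as did that of the sterol carrier Stard4 (0.15 ± 0.08, adjusted p = 0.118).

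The mevalonate enzymes followed. Mvd, which decarboxylates mevalonate pyrophosphate, stood at 15.1 and 16.2 CPM in WT DMSO and at 53.6 and 64.4 in DKO DMSO, a log2 fold change of 1.92 ± 0.18 (adjusted p = 1.53e-06). Mvk, mevalonate kinase, stood at 20.4 and 18.7 CPM against 67.1 and 70.4 (1.82 ± 0.09, adjusted p = 1.96e-09). For both, each DKO library held more than any WT library. Fdps, which makes farnesyl pyrophosphate, was higher by 1.46 ± 0.29, Idi1, the isomerase before it, by 1.24 ± 0.20, and Acat2, which joins acetyl-CoA units, by 1.09 ± 0.07. Fdps had only 1.15 to 4.68 CPM in any library, and 26.7% of its exon bases also belong to the annotated gene Gm43738 on the same strand. Hmgcs1, which forms HMG-CoA, was higher by 0.60 ± 0.11, and Pmvk, phosphomevalonate kinase, by 0.43 ± 0.13. Ggps1, which makes geranylgeranyl pyrophosphate for protein prenylation and so branches away from sterols, was the lone mevalonate gene to fall. It went from 49.0 and 46.9 CPM in WT to 22.4 and 33.5 in DKO, by 0.80 ± 0.10 on the log2 scale (adjusted p = 1.23e-05).

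From squalene onward, Sqle (chromosome 15, 59315077 to 59331192, plus strand), the epoxidase at a rate-setting step, stood at 39.1 and 38.2 CPM in WT DMSO and at 146 and 127 in DKO DMSO (log2 fold change 1.81 ± 0.10, adjusted p = 6.76e-09). Msmo1, a methylsterol oxidase, stood at 26.7 and 26.5 CPM against 87.9 and 96.7 (1.80 ± 0.12, adjusted p = 4.34e-08). The DKO libraries held more than any WT library for both genes. Cyp51, the lanosterol demethylase, was higher by 1.68 ± 0.10, Lss, lanosterol synthase, by 1.14 ± 0.11, and Nsdhl, which acts after Msmo1, by 1.03 ± 0.10. Fdft1, squalene synthase, was higher by 0.63 ± 0.10, and Ebp, Hsd17b7 and Sc5d, enzymes of later steps, by 0.42 to 0.51. A share of 18.3% of the exon bases of Fdft1 overlaps Ctsb on the opposite strand, whose counts are far higher, and no strand setting is given, so reads of the pair may be mixed. The last enzyme, Dhcr7, and the reductase gene Tm7sf2 missed the threshold, at 0.08 ± 0.11 and 0.28 ± 0.22.

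In the fatty acid arm, Fasn (chromosome 11, 120805846 to 120824547, minus strand), fatty acid synthase, stood at 220.4 and 216 CPM in WT DMSO and at 786 and 674 in DKO DMSO, a log2 fold change of 1.74 ± 0.10 (adjusted p = 5.29e-09). Me1, malic enzyme, a source of NADPH, was higher by 1.39 ± 0.08, Acly, which splits citrate into acetyl-CoA, by 0.86 ± 0.10, and Acss2, which charges acetate, by 0.72 ± 0.15. The acetyl-CoA carboxylases parted: Acaca, the cytosolic form that feeds synthesis, was higher by 0.97 ± 0.16, and Acacb, the mitochondrial form that restrains fatty acid oxidation, was lower by a log2 fold change of -1.22 ± 0.21 (adjusted p = 0.000202). Acacb stood at 13.1 and 16.5 CPM in WT and at 7.04 and 5.85 in DKO. Fads2, the desaturase of the polyunsaturated series, was higher by 1.47 ± 0.08, the stearoyl-CoA desaturase gene Scd2 by 0.81 ± 0.13, its partner desaturase Fads1 by 0.65 ± 0.08, and the elongases Elovl1 and Elovl5 by 0.59 ± 0.09 and 0.43 ± 0.09. Scd1 overlapped between the genotypes and missed the threshold (0.10 ± 0.07). Elovl6, which lengthens palmitate to stearate, fell from 45.5 and 43.0 CPM in WT to 13.7 and 36.4 in DKO, by 0.92 ± 0.23 on the log2 scale (adjusted p = 0.00606).

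That last pair of DKO values shows how far the 2 DKO DMSO libraries differed: Elovl6 was 2.66 times as high at 4 days as at 2 days, and Acaca 0.651 times. Of the 33 calls 30 held in each fit that left out 1 library. The exceptions were Srebf1 (without WT DMSO at 4 days or DKO DMSO at 2 days, -0.10 without the latter), Insig2 (without either 2-day DMSO library, -0.16 without the DKO one) and Pmvk (without either 4-day DMSO library, 0.18 without the DKO one). Elovl6 lay at -0.48 without the DKO DMSO 2-day library and at -1.50 without the 4-day one, Acaca at 0.54 without the former, Sc5d at 0.26 without the latter and Acacb at -0.76 without WT DMSO at 4 days, all still called. Between the fits the genes called lower numbered 3, without DKO DMSO at 2 days, to 5. On log2(TPM + 1), with an all-gene median of -0.23, 34.7% of all calls were higher against 48.4% on counts, and 19 of the 38 genes were called higher and 5 lower.

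**Figure D2:**
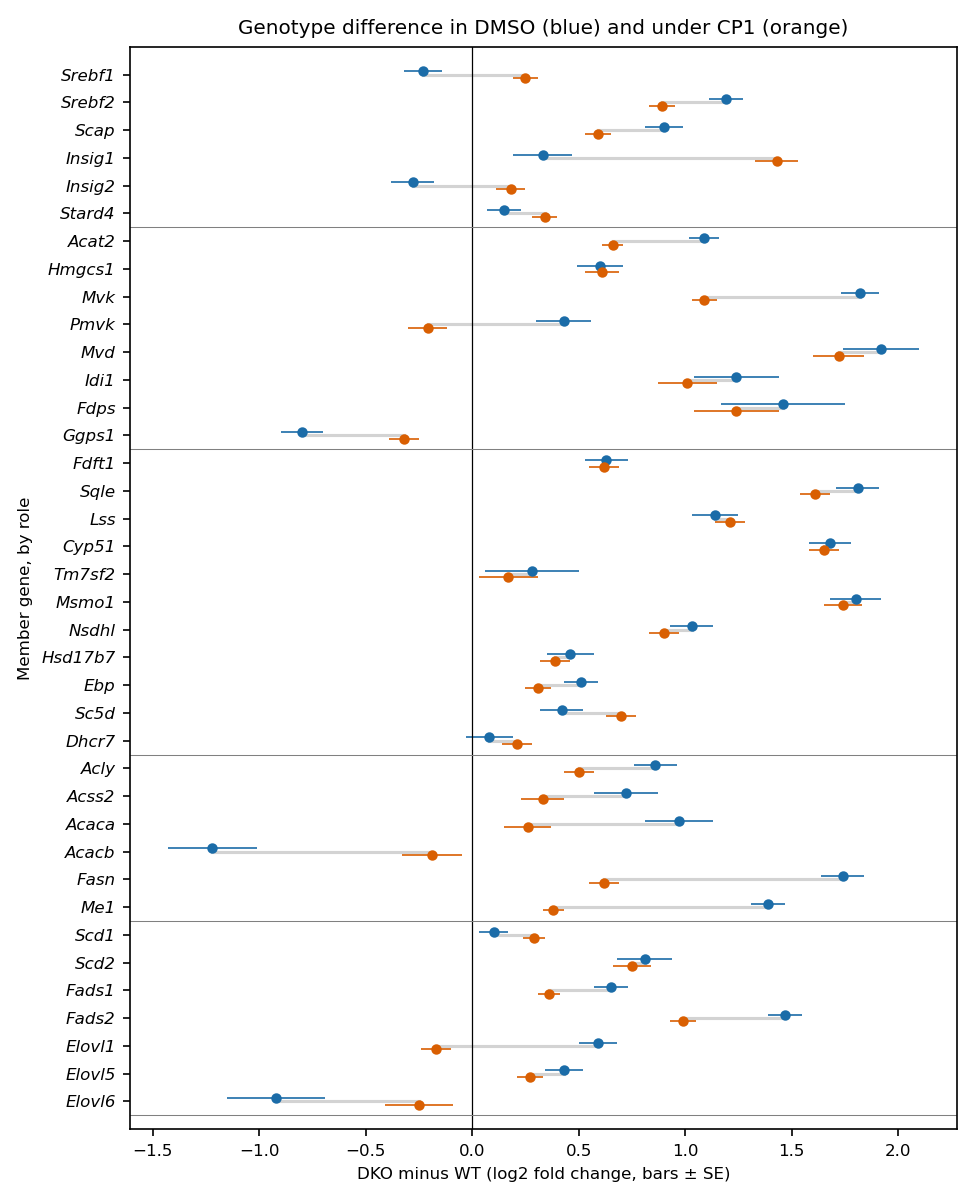
DKO minus WT log2 fold change (x axis, points ± SE) for the 38 genes (y axis, by role), in DMSO (blue) and under CP1 (orange). Squalene-to-cholesterol genes such as Msmo1 (1.80 and 1.74) keep nearly the same place, while Fasn (1.74 and 0.62), Me1 (1.39 and 0.38) and Insig1 (0.33 and 1.43) move apart.

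The second comparison asked what CP1 did in WT cells. The changes were few. The widest was that of Tm7sf2 (a log2 fold change of 0.71), followed by the stearoyl-CoA desaturases Scd1 (0.64) and Scd2 (0.61, but 0.36 without WT DMSO at 2 days). Of the 38 genes 7 were called higher and 2 lower, where 17.8% of all tested genes were called, 7.5% higher and 10.3% lower. The median log2 fold change was 0.07 (0.01 over all genes). The higher genes fell on Mvk among the mevalonate steps, Tm7sf2 and Hsd17b7 after squalene, Acss2 and Me1 in fatty acid synthesis, and the 2 desaturases. The lower ones were Insig1 and Ggps1.

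Scd1 (chromosome 19, 44394455 to 44407879, minus strand), which puts the double bond into stearate and palmitate, stood at 160.1 and 164 CPM in WT DMSO at 2 and 4 days. In WT CP1 it stood at 259 and 254 at 2 days and at 254 and 244 at 4 days, all above DMSO, a log2 fold change of 0.64 ± 0.06 (adjusted p = 1.58e-05). Its neighbour Scd2 (44293674 to 44306864, plus strand) had 486 and 489 CPM in DMSO against 907 and 877 at 2 days and 654 and 600 at 4 days of CP1 (0.61 ± 0.11, adjusted p = 0.00246). Tm7sf2, a sterol reductase of low level, stood at 3.96 and 3.79 CPM in DMSO and at 6.61, 6.62, 5.92 and 6.23 in CP1 (0.71 ± 0.18, adjusted p = 0.017). Of its exon bases 12.1% are shared with Vps51 on the same strand. Acss2 stood at 11.6 and 12.3 CPM in DMSO, at 19.0 and 19.5 at 2 days of CP1 and at 15.1 and 16.4 at 4 days (0.54 ± 0.13, adjusted p = 0.0106).

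Insig1 fell, from 26.6 and 28.6 CPM in WT DMSO to 19.9, 18.1, 21.6 and 16.7 in CP1, by 0.54 ± 0.12 on the log2 scale (adjusted p = 0.00921). Ggps1 fell from 49.0 and 46.9 CPM to 35.8, 37.0, 39.1 and 36.6, by 0.37 ± 0.08 (adjusted p = 0.00841). The DMSO and CP1 libraries of neither gene overlapped. Me1, Hsd17b7, a sterol ketoreductase, and Mvk were higher by 0.33 ± 0.07, 0.30 ± 0.09 and 0.25 ± 0.08. Neither SREBP gene was called: Srebf2 ran from 176 to 199 CPM in CP1 against 179 and 187 in DMSO (0.06 ± 0.07, with a 95% interval of -0.11 to 0.24), and Srebf1 from 87.8 to 99.5 against 95.7 and 95.9 (-0.05 ± 0.07, interval -0.23 to 0.13). Fasn (0.08 ± 0.08, interval -0.12 to 0.28) and Sqle (0.21 ± 0.09, interval 0 to 0.43) were not called either.

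Only Scd1 among the 9 kept its call in each fit that left out 1 library. Insig1, Ggps1 and Tm7sf2 lost theirs without either WT DMSO library, Acss2 and Scd2 (0.35 and 0.36) without the 2-day one, Me1 without the 4-day one, and Mvk and Hsd17b7 in 8 fits each. The fits called 2 genes higher without WT DMSO at 2 days, 3 (and 0 lower) without that of 4 days, and 11 higher and 3 lower without either DKO DMSO library. Without the 3 WT CP1 libraries rich in ribosomal RNA, 1 WT CP1 library remained and 1 gene was called higher (Scd2, 0.85, adjusted p = 0.0494) and 0 lower, at sizes such as 0.66 for Scd1 (adjusted p = 0.0584) and -0.56 for Insig1. On the deposited TPM, where the ribosomal reads lower all other genes and 7.77% of all calls were higher against 42.1% on counts, Scd1 was called higher (0.45) and Insig1 and Ggps1 lower (-0.70 and -0.54). On TPM recomputed without rRNA and miRNA genes 13 genes were called higher and 0 lower, with 69% of all calls higher.

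**Figure D3:**
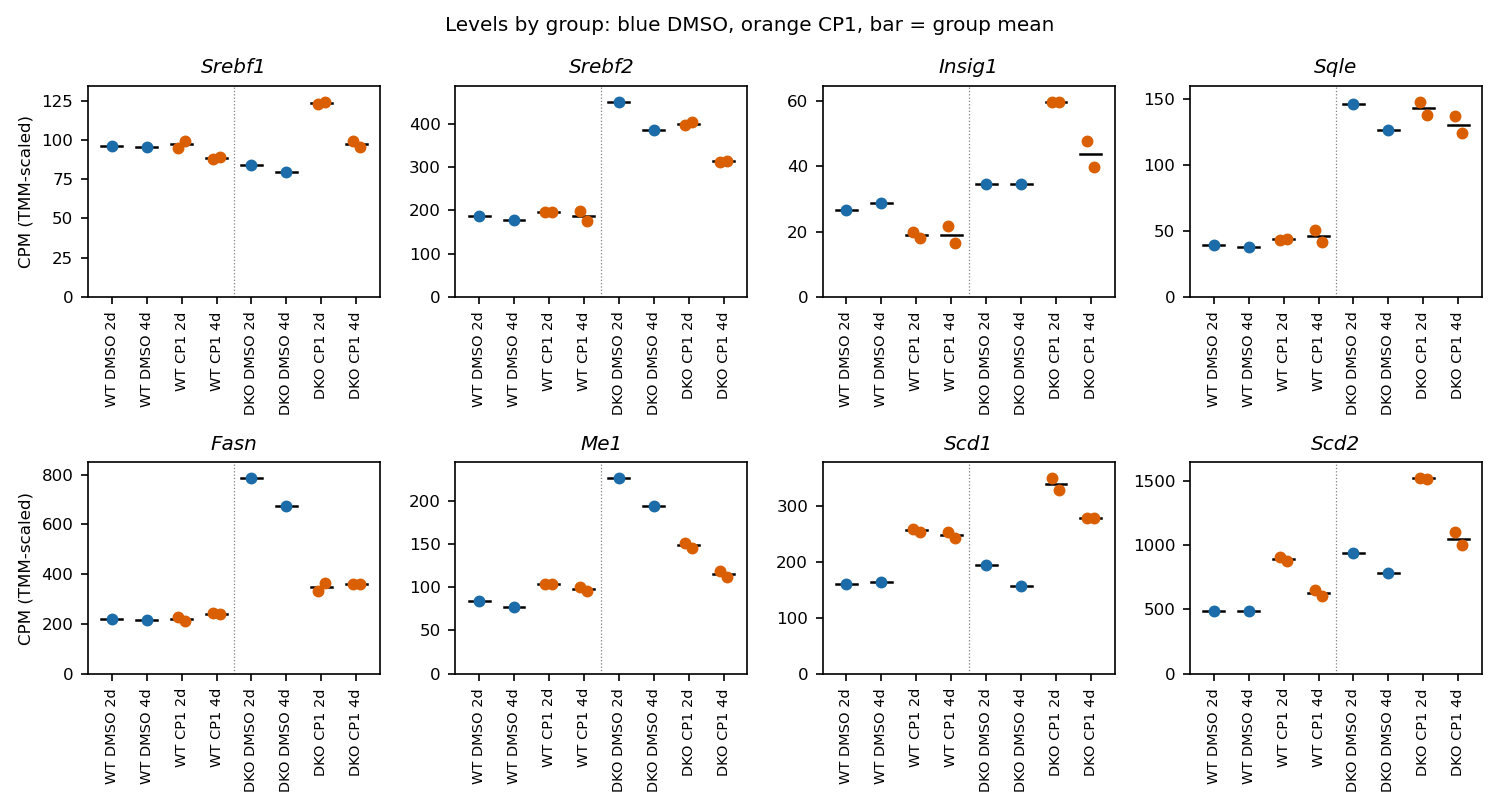
CPM (y axes, from 0) of 8 genes in the 8 groups (x axes): blue points are DMSO libraries, orange points CP1 libraries and bars group means. Fasn falls from 786 and 674 CPM in DKO DMSO to between 333 and 363 in DKO CP1, Scd1 rises with CP1 in both genotypes, and Insig1 falls in WT and rises in DKO.

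The third comparison asked what CP1 did in DKO cells. Both arms split: Fasn fell most, with Me1, Elovl1 and Mvk, while the SREBP sensors Insig1 and Insig2, Srebf1 and the desaturases Scd1 and Scd2 rose. Of the 38 genes 10 were called higher and 14 lower, where 51.9% of all tested genes were called, 24.2% higher and 27.6% lower. Calls in both directions were thus common among all tested genes too. The median log2 fold change of the 38 genes, 0.01, was close to that of all genes, 0.02. Mevalonate genes had 0 higher and 4 lower, fatty acid synthesis genes 1 and 4, squalene-to-cholesterol genes 3 and 1, the SREBP system 3 and 2, and desaturation and elongation genes 3 and 3.

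Fasn had 786 and 674 CPM in DKO DMSO at 2 and 4 days. In DKO CP1 it had 333 and 363 at 2 days and 361 and 361 at 4 days, below both DMSO libraries, a log2 fold change of -1.04 ± 0.08 (adjusted p = 3.67e-07). Me1 fell from 226 and 194 CPM to 152 and 145 at 2 days and 119 and 112 at 4 days (-0.68 ± 0.06, adjusted p = 2.8e-06). Elovl1, which lengthens very long saturated chains, fell from 97.7 and 95.9 CPM to 51.8, 56.5, 67.6 and 65.9 (-0.69 ± 0.08, adjusted p = 1.55e-05), and Mvk from 67.1 and 70.4 to 49.5, 51.5, 47.7 and 49.0 (-0.48 ± 0.07, adjusted p = 0.000121). None of these 4 overlapped with DMSO, though the share of all tested genes without overlap was not counted. Smaller falls in log2 fold change were those of Scap (-0.45), Acaca (-0.44), Mvd (-0.43), Pmvk and Fads2 (-0.38 each), Acat2 (-0.37) and Ebp (-0.35). Srebf2 (-0.24), Acly (-0.24) and Fads1 (-0.22) were also lower on counts, but lay at 0.08, 0.07 and 0.09, not called, on log2(TPM + 1), where the median of all genes was 0.23. Srebf2 had 397 and 403 CPM at 2 days of CP1 and 311 and 315 at 4 days, against 451 and 385 in DMSO, so that its groups overlapped.

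Among the genes that rose, Scd1 had 194 and 156 CPM in DKO DMSO and 350.1, 329, 279.5 and 279 in CP1 (log2 fold change 0.82 ± 0.07, adjusted p = 5.96e-07). Scd2 had 941 and 786 in DMSO, 1521 and 1518 at 2 days of CP1 and 1099 and 998 at 4 days (0.55 ± 0.11, adjusted p = 0.00126). Insig1 had 34.7 and 34.6 in DMSO and 59.7, 59.7, 47.8 and 39.9 in CP1 (0.56 ± 0.12, adjusted p = 0.00211). All CP1 libraries lay above both DMSO libraries for these 3 genes. Srebf1 rose from 84.0 and 79.6 CPM to 123 and 124 at 2 days and 99.4 and 95.6 at 4 days (0.42 ± 0.08, adjusted p = 0.000458). Insig2 rose from 40.7 and 36.8 to 53.8, 59.4, 45.1 and 41.5 (0.36 ± 0.09, adjusted p = 0.00386). For both regulators the 2-day CP1 libraries were the highest.

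Acacb, the carboxylase that was low in DKO DMSO at 7.04 and 5.85 CPM, rose to 11.6, 12.4, 9.54 and 7.83 (0.68 ± 0.19, adjusted p = 0.0101). Elovl6 overlapped between groups, with 13.7 and 36.4 CPM in DMSO against 35.8, 28.5, 45.5 and 38.5 in CP1 (0.66 ± 0.21, adjusted p = 0.0254). Tm7sf2 rose from 4.42 and 4.97 to 7.51, 8.61, 7.32 and 5.09 (0.60 ± 0.18, adjusted p = 0.0152), the last library being close to DMSO. Among late sterol genes, where Ebp fell, Dhcr7 had 23.1 and 24.3 CPM in DMSO and 31.3, 31.8, 28.0 and 26.3 in CP1 (0.30 ± 0.09), and Sc5d, a sterol desaturase, had 65.1 and 66.9 against 91.4, 81.7, 73.0 and 69.9 (0.25 ± 0.09). Some enzymes that had differed widely between genotypes were not called, Sqle at 0.01 ± 0.08, Msmo1 at 0.05 ± 0.10 and Cyp51 at -0.13 ± 0.08.

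Of the 24 calls 14 held in each fit that left out 1 library, those of Srebf1, Srebf2, Scap, Insig1, Acat2, Mvk, Ebp, Fasn, Me1, Scd1, Scd2, Fads1, Fads2 and Elovl1. The other calls rested on a DKO DMSO library: without the 2-day one Insig2 (0.24), Tm7sf2 (0.34), Sc5d (0.09), Dhcr7 (0.16), Acly (-0.05), Acaca (-0.03), Acacb and Elovl6 (0.21) lost theirs, Insig1 lay at 0.35 and Mvd at -0.79, and 6 genes were called higher; without the 4-day one Pmvk (-0.13) and Mvd (-0.05) lost theirs, Elovl6 lay at 1.23, Acaca at -0.83, Acly at -0.43 and Sc5d at 0.40, and 15 were called higher. Acly, Acaca, Mvd and Sc5d also lost their calls without single CP1 libraries. On log2(TPM + 1), with 79.8% of all calls higher against 46.7% on counts, Fasn (-0.72), Me1 (-0.36) and Elovl1 (-0.37) were the 3 genes called lower and 14 were called higher, with mevalonate genes at 1 higher and 0 lower. Scd1 (1.13), Elovl6 (0.94), Scd2 (0.86), Insig1 (0.85) and Srebf1 (0.72) were among the latter.

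At each day, taken as values without calls because the DMSO group then holds 1 library, Fasn in DKO lay at -1.18 ± 0.06 (log2 fold change ± SE) at 2 days and -0.90 ± 0.06 at 4 days. Insig1 lay at 0.78 ± 0.13 and 0.35 ± 0.13, Srebf1 at 0.56 ± 0.06 and 0.29 ± 0.06, and Scd1 at 0.81 ± 0.05 and 0.84 ± 0.06. For some sterol genes the value was lower at 4 days: Mvd lay at -0.04 ± 0.09 and -0.79 ± 0.09, Idi1 at 0.38 ± 0.18 and -0.31 ± 0.16, and Msmo1 at 0.27 ± 0.09 and -0.17 ± 0.09. Acaca went from -0.82 ± 0.06 to -0.03 ± 0.06 and Elovl6 from 1.23 ± 0.16 to 0.21 ± 0.13; in both genes, and in Idi1 (1.73 times as high at 4 days), the DKO DMSO libraries themselves differed by day. The mean of Idi1 in DKO CP1 was 26.1 CPM at 2 days and 27.7 at 4 days. In WT, Scd2 lay at 0.88 ± 0.07 and 0.36 ± 0.07, Insig1 at -0.49 ± 0.14 and -0.58 ± 0.13, and Acacb at 0.10 ± 0.15 and -0.78 ± 0.15.

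The effects of CP1 in the 2 genotypes were then compared directly, as the effect in DKO minus that in WT. The effects differed for Fasn, Me1 and other genes of the fatty acid arm and for Srebf1, Insig1 and Insig2. Of the 38 genes 5 were called higher and 12 lower, where 42.4% of all tested genes were called, 20.1% higher and 22.3% lower, with a median of -0.14 (0.01 over all genes). The number called was thus close to the share over all genes. Fatty acid synthesis genes had 1 higher and 4 lower, mevalonate genes 1 and 3, the SREBP system 3 and 2, desaturation and elongation genes 0 and 3, and squalene-to-cholesterol genes 0 and 0 by edgeR and by DESeq2. On log2(TPM + 1) 3 genes of that last role were called higher (Lss 0.54, Sc5d 0.77 and Dhcr7 0.59), without rRNA and miRNA genes 1 (Sc5d 0.46), and with 8 group means 1 (Sc5d 0.28).

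Insig1 had the widest positive difference, 1.10 ± 0.17 on the log2 scale (adjusted p = 0.000302): it fell in WT by 0.54 and rose in DKO by 0.56. Acacb differed by 1.03 ± 0.25, Ggps1 by 0.48 ± 0.12, Srebf1 by 0.47 ± 0.10 and Insig2 by 0.46 ± 0.12. On the other side stood Fasn at -1.12 ± 0.11 (adjusted p = 9.27e-06) and Me1 at -1.01 ± 0.09 (adjusted p = 4.36e-06), then Elovl1 at -0.76 ± 0.12, Mvk at -0.73 ± 0.11, Acaca at -0.71 ± 0.20 and Pmvk at -0.64 ± 0.16. Me1 and Mvk were higher with CP1 in WT and lower in DKO, both called. Fads2 (-0.48), Acat2 (-0.43), Acly (-0.36), Scap (-0.31), Srebf2 (-0.30) and Fads1 (-0.29) completed the lower calls on counts, but lay at 0.02, 0.07, 0.15, 0.19, 0.20 and 0.21, not called, on log2(TPM + 1), where the median of all genes was 0.38. The desaturases were not called on counts with the day term: the difference was 0.18 for Scd1 (95% interval -0.04 to 0.40), called at 0.18 with 8 group means and at 0.68 on log2(TPM + 1), and -0.06 for Scd2 (-0.44 to 0.33), and those of Sqle (-0.21, -0.50 to 0.09) and Msmo1 (-0.06, -0.42 to 0.30) were not called.

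The calls of Srebf1, Insig1, Acat2, Mvk, Pmvk, Fasn, Me1, Fads2 and Elovl1 held in each fit that left out 1 library. Insig2 and Ggps1 lost theirs without WT DMSO at 2 days, Acacb (0.58) and Acaca without WT DMSO at 4 days, and Srebf2, Scap, Acly and Fads1 in 5 to 8 fits each, Scap and Acly among others without DKO DMSO at 2 days (-0.17 each); without that library Acaca lay at -0.29, and without the 4-day one at -1.09, with Pmvk at -0.39 and Acly at -0.54. The fits called 3 genes higher, without WT DMSO at 2 days, to 8, without DKO DMSO at 4 days. On log2(TPM + 1) 11 were called higher and 2 lower, Fasn (-0.61) and Me1 (-0.50), with 91.3% of all calls higher against 47.5% on counts and, without rRNA and miRNA genes, 64%.

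**Figure D4:**
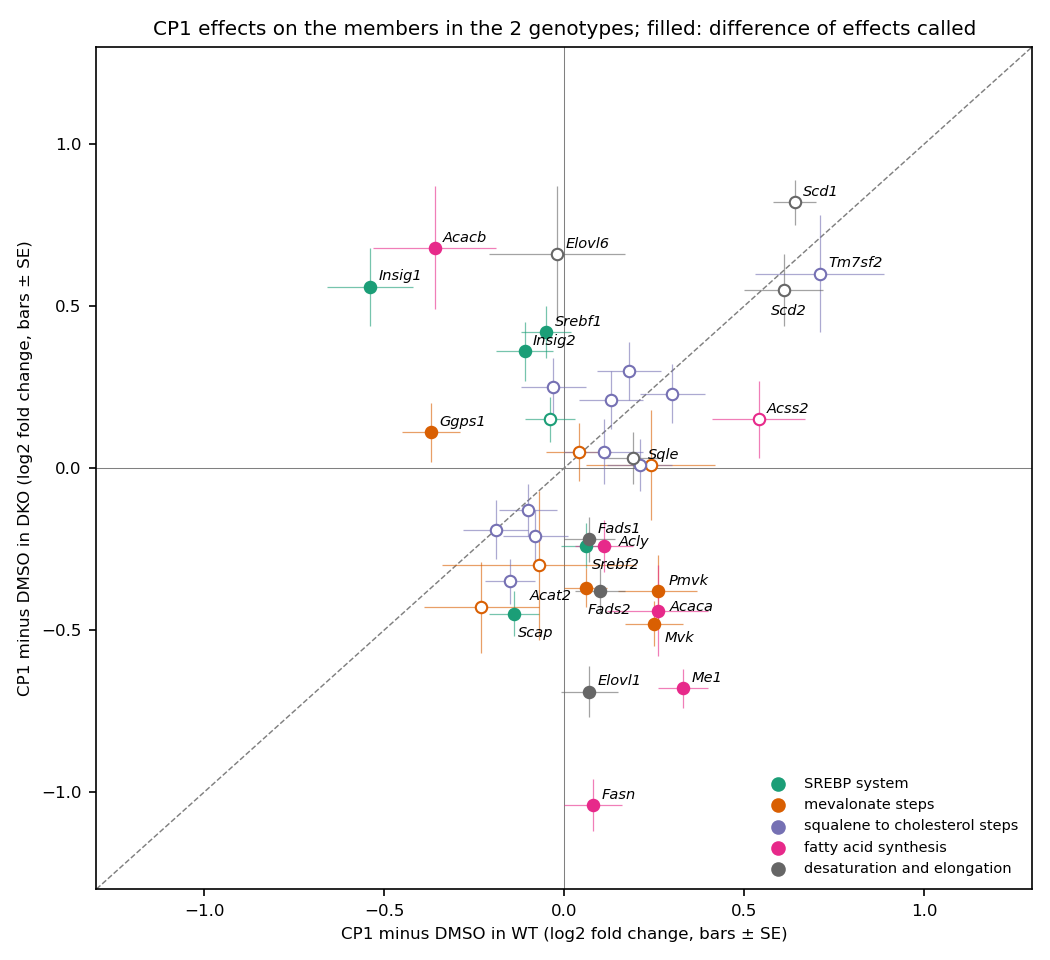
Log2 fold change with CP1 in WT (x axis) and in DKO (y axis) for the 38 genes, with bars of ± SE, colours for the roles and filled points where the difference of effects was called; the dashed line marks equal effects. Scd1 (0.64 and 0.82), Scd2 (0.61 and 0.55) and Tm7sf2 (0.71 and 0.60) lie near the line, Fasn (0.08 and -1.04) and Insig1 (-0.54 and 0.56) far from it.

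The fourth comparison set DKO against WT cells under CP1. Msmo1, Mvd, Cyp51 and Sqle were each over 3 times the WT level, all 6 genes of the SREBP system were higher, and Fasn and Me1 stood closer to WT than in DMSO. Of the 38 genes 31 were called higher and 2 lower, where 59.5% of all tested genes were called, 28.9% higher and 30.6% lower, with a median of 0.54 (-0.01 over all genes). Squalene-to-cholesterol genes had 10 higher and 0 lower, mevalonate genes 6 and 1, desaturation and elongation genes 5 and 1, and fatty acid synthesis genes 4 and 0.

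Across the 4 CP1 libraries of each genotype, Msmo1 ran from 26.3 to 30.6 CPM in WT and from 83.5 to 113 in DKO (log2 fold change 1.74 ± 0.09, adjusted p = 2.25e-09). Mvd ran from 11.3 to 15.4 and from 37.2 to 53.6 (1.72 ± 0.12, adjusted p = 2.52e-07), Cyp51 from 37.1 to 45.6 and from 119.6 to 141 (1.65 ± 0.07, adjusted p = 4.22e-10), and Sqle from 41.4 to 50.7 and from 124 to 148 (1.61 ± 0.07, adjusted p = 7.66e-10). No WT library reached a DKO library in any of these 4 genes. Insig1 had 19.9, 18.1, 21.6 and 16.7 CPM in WT against 59.7, 59.7, 47.8 and 39.9 in DKO, by 1.43 ± 0.10 (adjusted p = 6.98e-08). Srebf2 was higher by 0.89 ± 0.06 and Srebf1 by 0.25 ± 0.06.

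Fasn was higher by 0.62 ± 0.07 and Me1 by 0.38 ± 0.05. Ggps1 was lower, at 35.8, 37.0, 39.1 and 36.6 CPM in WT and 27.6, 26.9, 34.0 and 30.7 in DKO (-0.32 ± 0.07, adjusted p = 0.00157). Elovl1 was called lower by -0.17 ± 0.07 (adjusted p = 0.0452), with 64.6, 66.0, 71.4 and 68.9 CPM in WT overlapping with 51.8, 56.5, 67.6 and 65.9 in DKO, but lay at 0.08, not called, on log2(TPM + 1), where the median of all genes was 0.19. Without rRNA and miRNA genes in the TPM it was called lower (-0.18). Of the 33 calls 29 held in each fit that left out 1 library; Elovl1, Insig2 (0.18) and Dhcr7 (0.21) lost theirs in 5 to 7 fits and Acss2 (0.33) without the first WT CP1 library of 4 days, and 4 genes were called lower without either DKO DMSO library. On log2(TPM + 1) of the deposited values 69.4% of all calls were higher, against 48.6% on counts.

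Day 4 was compared with day 2 under CP1 within each genotype. In WT 1 gene was called higher and 7 lower, where 15.3% of all tested genes were called, 7% higher and 8.26% lower. In DKO 4 were higher and 15 lower, where 24.2% were called, 12.1% higher and 12% lower. The medians were -0.06 in WT and -0.14 in DKO, against 0 over all genes in both. Whether the change by day differed between the genotypes was not tested.

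Scd2 fell in both, from 907 and 877 to 654 and 600 CPM in WT (log2 fold change -0.51 ± 0.05, adjusted p = 5.84e-08) and from 1521 and 1518 to 1099 and 998 in DKO (-0.53 ± 0.05, adjusted p = 3.34e-08). In WT the other falls were those of Acacb, from 13.2 and 14.8 to 9.88 and 9.34 CPM (-0.54 ± 0.12), Acss2, from 19.0 and 19.5 to 15.1 and 16.4 (-0.30 ± 0.10), Mvd, from 15.4 and 14.3 to 12.9 and 11.3 (-0.30 ± 0.09), Fads2 (-0.27 ± 0.05), Dhcr7 (-0.25 ± 0.08) and Hmgcs1 (-0.23 ± 0.07). Acly rose from 177 and 163 to 189 and 189 CPM (0.15 ± 0.05, adjusted p = 0.0204), but lay at 0 on log2(TPM + 1), where the median of all genes was -0.13. The calls of Scd2 and Fads2 held in each fit that left out 1 library, and those of Hmgcs1, Mvd, Dhcr7, Acly, Acss2 and Acacb did not, each among others without the second WT CP1 library of 2 days, without which 0 genes were higher and 2 lower (0.09 for Acly).

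In DKO the SREBP system stood lower at 4 days: Srebf2 fell by 0.35 ± 0.05 (adjusted p = 3.59e-06), Srebf1 by 0.34 ± 0.05 (adjusted p = 1.25e-05), Insig1 by 0.44 ± 0.10 and Insig2 by 0.38 ± 0.07, all on the log2 scale. Acss2 fell from 25.7 and 27.8 to 19.0 and 16.6 CPM (-0.58 ± 0.10), Mvd from 50.4 and 53.6 to 37.2 and 37.5 (-0.48 ± 0.07), and Acacb from 11.6 and 12.4 to 9.54 and 7.83 (-0.45 ± 0.13). Lss (-0.38 ± 0.07), Me1 (-0.36 ± 0.05), Fdft1 and Msmo1 (-0.30 ± 0.07 each), Fads1 (-0.29 ± 0.04), Scd1 (-0.28 ± 0.04) and Sc5d (-0.28 ± 0.06) fell too. The 4 genes that rose were Elovl6, from 35.8 and 28.5 to 45.5 and 38.5 CPM (0.39 ± 0.11), Elovl1, from 51.8 and 56.5 to 67.6 and 65.9 (0.30 ± 0.06), Ggps1, from 27.6 and 26.9 to 34.0 and 30.7 (0.25 ± 0.08), and Acaca, from 155 and 149 to 174 and 169 (0.18 ± 0.05). DKO DMSO, with 1 library per day, also differed by day. Its ratio of day 4 to day 2 was 0.855 for Srebf2, 0.835 for Scd2, 0.805 for Scd1 and 0.819 for Fads1. Insig1 had 0.998, Msmo1 1.1 and Mvd 1.2. Among the genes that rose, Ggps1 had 1.49, Elovl6 2.66, Elovl1 0.982 and Acaca 0.651. Whether the change by day differed between CP1 and DMSO was not tested. Of the 19 calls 13 held in each fit that left out 1 library; Elovl6, Ggps1, Acacb, Fdft1, Msmo1 and Acaca lost theirs without 1 or 2 of the CP1 libraries (Elovl6 at 0.24 without the second of 2 days), and 1 gene was called higher without the first DKO CP1 library of 4 days. On log2(TPM + 1) 0 genes were called in DKO and 1 (Scd2, lower) in WT. Without rRNA and miRNA genes in the TPM, DKO had 4 lower calls in the SREBP system, 3 in desaturation and elongation and 2 in fatty acid synthesis. The mevalonate and squalene-to-cholesterol roles had 1 lower each. Higher calls were 1 each in the squalene-to-cholesterol and the desaturation and elongation roles. In WT 2 genes of desaturation and elongation were then lower.

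Genes around the pathway came from lists drawn up for the same processes. Their counts stand against 32.7% higher and 34.8% lower among all tested genes in DKO DMSO, and 24.2% and 27.6% with CP1 in DKO. Of 12 genes of sterol export, storage and the LXR receptors, which sense oxysterols, 5 were higher and 6 lower in DKO DMSO, and 5 higher and 3 lower with CP1 in DKO. Abca1, the sterol exporter and a classical LXR target, had 162 and 155 CPM in WT DMSO and only 10.5 and 12.9 in DKO DMSO. With CP1 the DKO libraries reached 129, 125, 94.2 and 98.8 CPM, near the WT CP1 values of 134, 128, 74.6 and 77.8. Abca1 was thus lower in DKO DMSO by a log2 fold change of -3.77 ± 0.22 and higher with CP1 in DKO by 3.24 ± 0.20 (adjusted p = 8.58e-07), against -0.68 ± 0.16 in WT, and these effects of CP1 differed by 3.91 ± 0.25 (adjusted p = 2e-06). Mylip, which marks the LDL receptor for breakdown and is another LXR target, had 30.1 and 27.5 CPM in DKO DMSO and 63.1 to 72.3 in DKO CP1 (1.25 ± 0.09). Nr1h3, which encodes LXR alpha, was lower in DKO DMSO by -3.48 ± 0.26, at 0.698 and 0.701 CPM against 8.51 and 7.14. The 5 genes of this list called higher in DKO DMSO were Osbp (1.1), Nceh1 (0.61), Lpcat3 (0.38), Soat1 (0.27) and Nr1h2 (0.27). Nr1h2, the other LXR gene, had 54.7 and 56 CPM in WT DMSO and 72.9 and 61.3 in DKO DMSO. Npc2, a lysosomal sterol carrier, was lower there by -2.31 ± 0.11 and lower with CP1 in WT by -1.13 ± 0.09.

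Against the same shares (32.7% higher and 34.8% lower in DKO DMSO, 24.2% and 27.6% with CP1 in DKO), of 13 genes of the isoprenoid branches and protein prenylation, 8 were higher and 1 lower in DKO DMSO, and with CP1 in DKO 1 was higher and 10 lower. Pdss2, of coenzyme Q synthesis, had 6.16 and 7.63 CPM in WT DMSO, 26.0 and 24.5 in DKO DMSO and 10.9 to 13.0 in DKO CP1 (-1.04 ± 0.11 with CP1), and Fnta, a prenyltransferase subunit, fell by 0.67 ± 0.08 on the log2 scale. Of 18 genes of fatty acid oxidation tested 11 were higher and 5 lower in DKO DMSO, and 0 were higher and 10 lower with CP1 in DKO, among them Acadl (-0.82 ± 0.07) and Acads (-0.71 ± 0.08), acyl-CoA dehydrogenases. Of 16 genes of lipid supply and other SREBP targets 11 were higher and 2 lower in DKO DMSO, with Acsl3, an acyl-CoA synthetase, higher by 1.13 ± 0.09, and 2 higher and 6 lower with CP1 in DKO. Of 12 genes of SREBP cleavage and turnover 4 were higher and 6 lower in DKO DMSO and 4 and 4 with CP1 in DKO, near the shares over all genes. Of 9 tested genes of the long-chain fatty acid cycle 7 were higher and 1 lower in DKO DMSO, and 1 was higher and 5 lower with CP1 in DKO, where Hacd1, a dehydratase of elongation, fell by 1.05 ± 0.09. With CP1 in WT 7.5% of all tested genes were higher and 10.3% lower. Fatty acid oxidation then had 4 higher and 1 lower of 18, and the long-chain fatty acid cycle 3 and 1 of 9. Sterol export, storage and LXR targets had 0 and 3 of 12, and lipid supply 2 and 1 of 16. The lists of SREBP cleavage and of isoprenoid branches had 1 higher and 1 lower each.

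Markers of the fibroblast itself moved with the same comparisons. Of 12 fibroblast markers 1 was higher and 11 lower in DKO DMSO, and 11 higher and 1 lower with CP1 in DKO, where 67.5% and 51.9% of all tested genes were called. Their summed level was 25000 to 25410 CPM in WT DMSO, 16260 to 22690 in WT CP1, 9835 to 10330 in DKO DMSO and 13640 to 17190 in DKO CP1. Adipocytes also express this pathway strongly. Of the 11 adipocyte markers 5 were tested, with 1 higher and 2 lower in DKO DMSO and 3 higher and 1 lower with CP1 in DKO, and their summed level ran from 42.1 to 51.4 CPM in WT, 54.0 to 62.6 in DKO DMSO and 85.5 to 102 in DKO CP1. The defining markers Adipoq, Plin1 and Cidec were at most 0.125 CPM in any library. Hepatocyte markers summed to 67.1 CPM in the second WT CP1 library of 4 days and to at most 5.95 in each other one, while macrophage, epithelial and endothelial markers summed to at most 14.9, 12.2 and 71.9 CPM. What part any of these changes had in the results was not tested.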

How the data were processed

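RNA of 12 mouse embryonic fibroblast libraries was sequenced. The submitters' processing notes name featureCounts 1.5.2 and mm10; the aligner and strand setting are not given in the sources used here. The deposited counts are whole numbers per gene with no scaling. The deposited TPM came out as count over gene length, rescaled per library (100% of values within 1% or 0.01 TPM). Names were found for all 32168 gene IDs, and 0 value columns lacked a sample.

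Groups come from the sample titles. After TMM scaling, edgeR 4.0.16 (R 4.3.3; quasi-likelihood, robust) tested 16595 genes (minimum count 10, minimum total 15; 15573 left out). P-values were adjusted by Benjamini-Hochberg, and those under 0.05 were called. The procedure was first tested on simulated data. Comparisons of genotype and treatment used 4 means and a centred day term per genotype, taken as equal under DMSO and CP1 (6 residual degrees of freedom). Day comparisons used 8 means (4 degrees of freedom), in which a group of 1 library borrows its spread from the rest. Errors are SE of log2 fold changes. Statements that libraries did not overlap describe the values and are no test. How often this held over all tested genes was not counted. Repeats differed by more than sampling noise, and each library was counted separately. That excess does not show that repeats were separate cultures. Alternatives were RLE scaling, DESeq2 1.42.0, no filter, limma 3.58.1 on log2(TPM + 1), a replicate block, other designs and leaving out each library; 2 more (TPM without rRNA and miRNA genes, and leaving out the rRNA-rich WT libraries) were chosen after seeing the data.

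The 38 genes, the lists and the rule for names were chosen with earlier results of these data known. Values per library are given for Srebf1, Srebf2 and Insig1 where a result turns on them, for up to 4 called genes per direction with the largest fold change (mean log2 CPM of at least 2), and for called genes that went against the majority. Of each other list up to 3 called genes with the smallest p may be named. The genes of sterol export, storage and LXR called higher in DKO DMSO are named beyond that rule. Gene positions on mm10 come from the deposited tables, overlaps from the annotation in the reference. The values of 1 gene of the other lists are not reported here.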

Additional observations from a re-analysis of the deposited data

Results flagged for a closer look

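For 17 of the 38 genes the effect of CP1 differed between the genotypes by a test of the difference itself (edgeR's quasi-likelihood test, adjusted over all 16595 genes), as log2 effect in DKO minus effect in WT. The differences were 1.10 for Insig1, 1.03 for Acacb, 0.48 for Ggps1, 0.47 for Srebf1 and 0.46 for Insig2. In the other direction they were -1.12 for Fasn, -1.01 for Me1, -0.76 for Elovl1, -0.73 for Mvk, -0.71 for Acaca, -0.64 for Pmvk, -0.48 for Fads2, -0.43 for Acat2, -0.36 for Acly, -0.31 for Scap, -0.30 for Srebf2 and -0.29 for Fads1. Of all tested genes 42.4% were called for this difference, 20.1% higher and 22.3% lower, so the number called among the 38 was close to the share over all genes. Groups of 1 or 2 libraries are too small for a test of single outlying libraries.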

How the results depend on the processing

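Counts of the 38 genes called moved on log2(TPM + 1), where the all-gene median was 0.23 for CP1 in DKO and 0.38 for the difference of effects. There CP1 in WT had 1 gene higher, CP1 in DKO 14 higher and 3 lower, the difference of effects 11 higher and 2 lower, DKO against WT under CP1 0 lower, and day 4 against day 2 had 0 higher and 1 lower in WT and 0 and 0 in DKO. Without rRNA and miRNA genes, these were 13 higher and 0 lower (CP1 in WT), 19 and 4 (CP1 in DKO), 9 and 7 (difference), 0 and 2 (days, WT) and 2 higher (days, DKO). By day in DKO each role also kept lower calls on that scale. Genes that changed sign on TPM were, for CP1 in DKO, Srebf2 (0.08), Acly (0.07) and Fads1 (0.09), and 0.06, 0.06 and 0.08 without rRNA and miRNA genes. For the difference of effects they were Srebf2 (0.20), Scap (0.19), Acat2 (0.07), Acly (0.15), Fads1 (0.21) and Fads2 (0.02), and beyond these Elovl1 under CP1 (0.08) and Acly by day in WT (0). On TPM the shift of the all-gene median accompanies these values, and the cause was not tested. Without rRNA and miRNA genes 3 values were reversed, those of CP1 in DKO. On that scale Acat2 (-0.24) and Fads2 (-0.29) for the difference and Elovl1 under CP1 (-0.18) were called lower. Leaving out the 3 rRNA-rich WT CP1 libraries gave 1 higher and 0 lower for CP1 in WT, with fewer samples. With 8 group means CP1 in WT had 12 higher and 6 lower, the difference 9 higher, and DKO against WT under CP1 4 lower. DESeq2 gave 1 lower under CP1, 0 higher and 2 lower by day in WT and 2 higher by day in DKO. By day in WT, RLE scaling and the 4 CP1 libraries alone gave 2 higher each.

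The replicate numbers did not pair the samples (correlations of deviations -0.028 to 0.032). With the replicate block 3 genes were lower in DKO DMSO, 4 higher with CP1 in WT, 1 lower in DKO under CP1 and 2 higher by day in WT.

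Fits that left out 1 library gave 27 to 30 genes higher and 3 to 5 lower for DKO against WT in DMSO, 29 to 32 and 1 to 4 under CP1, 2 to 11 and 0 to 3 for CP1 in WT, 6 to 15 and 12 to 14 for CP1 in DKO, 3 to 8 and 8 to 14 for the difference, 0 to 2 and 2 to 10 by day in WT, and 1 to 5 and 12 to 16 by day in DKO. None of these fits, and none with RLE scaling, DESeq2, no filter or the block, reversed a called gene. With 1 DMSO library per day, an effect of day on CP1 response rests on single libraries.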

Other observations

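The adipocyte list held genes that moved in opposite directions. Pparg, the nuclear receptor that drives fat-cell differentiation, had 2.20 and 2.90 CPM in WT DMSO and 26.6 and 22.8 in DKO DMSO, a log2 fold change of 3.28 ± 0.22 (edgeR, adjusted p = 2.79e-08). Lpl and Fabp4 were called lower in that comparison, at -4.02 ± 0.46 and -0.92 ± 0.14 (edgeR, adjusted p = 4.56e-06 and 7.72e-05). With CP1 the DKO libraries had 14.1, 13.1, 17.6 and 18.3 CPM, below both DMSO libraries (-0.66 ± 0.15, adjusted p = 0.00264). Fabp4, a fatty acid carrier and a known PPARG target, had 10.8 and 13.0 CPM in DKO DMSO and 24.1 to 28.7 in DKO CP1 (1.16 ± 0.13, adjusted p = 9.44e-06). Plin4, a lipid droplet coat gene, had 21.7 and 14.2 CPM against 41.5 to 51.0 (1.35 ± 0.16, adjusted p = 2.5e-05). For Pparg, Fabp4 and Plin4 no DKO CP1 library overlapped with DKO DMSO.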
